A study of Mus musculus with 8 samples.

Results

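The 47 genes described here are members of the apoptosis machinery and the p53 pathway, measured as expression ratios between 2 mouse embryonic stem (ES) cell lines, HM-1 and R1. They were chosen by symbol alone: names that start with Casp, Bcl2, Birc, Pdcd, Tnfrsf or Traf followed by a digit, together with a short list of named genes such as Bak1, Mdm2, Cdkn1a and Gadd45a. Of 16255 features on the array, 52 carried such a symbol, and 47 of these were among the 14015 features with values on at least 3 arrays of each group. Bcl2l12, Casp1, Casp2, Casp4 and Tnfrsf1a had too few values to be tested. Trp53, Bax, Bbc3, Pmaip1 and Casp8 had no probe named so and were not analysed here.

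Each of 8 two-colour cDNA arrays carried RNA of both lines, one in Cy5 and the other in Cy3. On 4 arrays both lines were untreated. On the other 4 both had received nocodazole, which takes microtubules apart so that dividing cells stop in mitosis. HM-1 is an Hprt-deficient mouse ES line and R1 another widely used one, so every difference is one between 2 single lines. The labels give no dose, time, passage or clone. They do not say whether replicates are separate cultures, and the p-values then measure only array-to-array spread, which may be technical. The protocol in the labels speaks of organs and of a pool from control animals, which does not match the ES cell names of both channels. By the channel labels HM-1 was in Cy5 on 5 arrays and in Cy3 on 3 (untreated replicates 3 and 4, nocodazole replicate 4), whereas the design text describes an even dye swap.

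The intrinsic death pathway turns on the Bcl2 family, in which Bcl2, Bcl2l1 and Mcl1 restrain the pore formers Bax and Bak1, and the BH3 proteins Bad, Bid and Bcl2l11 relieve that restraint. Released cytochrome c assembles with Apaf1 and activates Casp9, while receptors of the Tnfrsf family and their Traf adaptors start the extrinsic pathway or survival signalling. The transcription factor p53, held down by Mdm2 and Mdm4, induces arrest genes such as Cdkn1a and Gadd45a, and ES cells are known for readily undergoing apoptosis when damaged or held in mitosis.

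Promoter windows of 300 bases around the annotated start (250 before it, 50 after), taken from RefSeq on GRCm38.p6, were found for 44 of the 47 genes, in 54 windows. The p53 half-site consensus, which is its own reverse complement so that both strands were searched at once, occurred in 8 of these windows (14.8%) against 2745 of all 32851 mouse windows (8.36%). For Cdkn1a, Ccng1, Gadd45a and Mdm2, known p53-induced genes, 4 of 5 windows (80%) held it, against 4 of 49 (8.16%) for the other members. Cdkn1a had 2 windows, of which 1 held it. The 4 windows are shown because these genes report on p53, whose own ratio was not analysed here. Capitals mark the half-sites, and each window is written on the strand of its gene: Ccng1 at chr11:40755237-40755536 (minus strand), Cdkn1a at chr17:29090729-29091028 (plus strand), Gadd45a at chr6:67037358-67037657 (minus strand) and Mdm2 at chr10:117710709-117711008 (minus strand).
Ccng1: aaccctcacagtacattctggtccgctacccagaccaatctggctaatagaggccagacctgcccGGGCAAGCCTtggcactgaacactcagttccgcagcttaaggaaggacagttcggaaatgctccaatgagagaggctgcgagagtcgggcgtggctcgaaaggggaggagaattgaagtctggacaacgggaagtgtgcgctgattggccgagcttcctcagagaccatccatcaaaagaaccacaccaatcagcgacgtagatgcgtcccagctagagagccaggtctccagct
Cdkn1a: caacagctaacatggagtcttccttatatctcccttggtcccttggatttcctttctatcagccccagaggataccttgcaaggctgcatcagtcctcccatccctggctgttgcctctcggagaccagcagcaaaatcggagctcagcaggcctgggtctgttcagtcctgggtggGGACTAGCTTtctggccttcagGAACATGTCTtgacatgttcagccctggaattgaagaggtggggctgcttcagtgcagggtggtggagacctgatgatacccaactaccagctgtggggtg
Gadd45a: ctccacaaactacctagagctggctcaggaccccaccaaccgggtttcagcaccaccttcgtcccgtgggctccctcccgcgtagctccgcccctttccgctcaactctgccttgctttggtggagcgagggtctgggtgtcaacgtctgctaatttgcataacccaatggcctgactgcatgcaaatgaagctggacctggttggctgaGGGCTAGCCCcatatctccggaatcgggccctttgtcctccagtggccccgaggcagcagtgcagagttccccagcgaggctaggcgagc
Mdm2: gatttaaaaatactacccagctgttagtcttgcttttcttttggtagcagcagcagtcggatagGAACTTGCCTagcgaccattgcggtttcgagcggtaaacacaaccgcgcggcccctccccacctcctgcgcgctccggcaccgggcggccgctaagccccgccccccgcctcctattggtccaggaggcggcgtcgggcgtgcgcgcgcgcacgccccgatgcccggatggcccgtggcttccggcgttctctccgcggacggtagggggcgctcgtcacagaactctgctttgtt
The Cdkn1a window held 2 half-sites, GGACTAGCTT and GAACATGTCT, with a gap of 12 bases, and 24 of the 32851 windows (0.0731%) held a pair within 13 bases. Such a match is a description of these letters and no evidence of binding.

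Every value below is a log2 ratio between the lines, with each array centred on its median, so 0 stands for equal signal and 1 for a ratio of 2. The deposited table does not say which line is the numerator, nor whether the arrays with swapped dyes had already been turned. Signs are therefore given as deposited, no line is called higher, and the counts and leading results are also given with the 3 arrays turned that had HM-1 in Cy3. Across features, the correlation was 0.02 to 0.23 for the 13 pairs of arrays of like dye and -0.18 to 0.01 for the 15 pairs of opposite dye. Nocodazole replicate 1 stood apart: of 483 features with one sign on the other 7 arrays, 385 (79.7%) had the opposite sign there, against 37.3 to 54.6% on the others. Counts and the results it moved are therefore also given without it. Each array had 17928 to 19445 values, the standard deviation over features was 1.10 on nocodazole replicate 3 and 0.58 to 0.77 on the others, and ratios give no level from which the cell type could be checked. Of 10 ES cell markers, 5 could be tested (Pou5f1 and Nanog not among them), and their mean ratio was 0.086 to 0.39 on untreated arrays, -0.085 to 0.67 on nocodazole replicates 2 to 4 and -0.30 on replicate 1. The 7 tested endoderm markers lay at -0.95 to 0.045, -0.79 to -0.67 and 0.26 in the same order, and the 9 fibroblast markers at -0.74 to 0.34, -1.04 to 0.16 and -0.083. Of 5 trophectoderm markers only 1, Krt8, could be tested, and it lay at -1.35 to -0.66, -1.265 to -0.93 and 1.41 in that order. The part of other cell types in the members' ratios was not tested, and in RNA of whole cultures fewer cells of a type and less RNA per cell cannot be told apart.

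**Figure D1:**
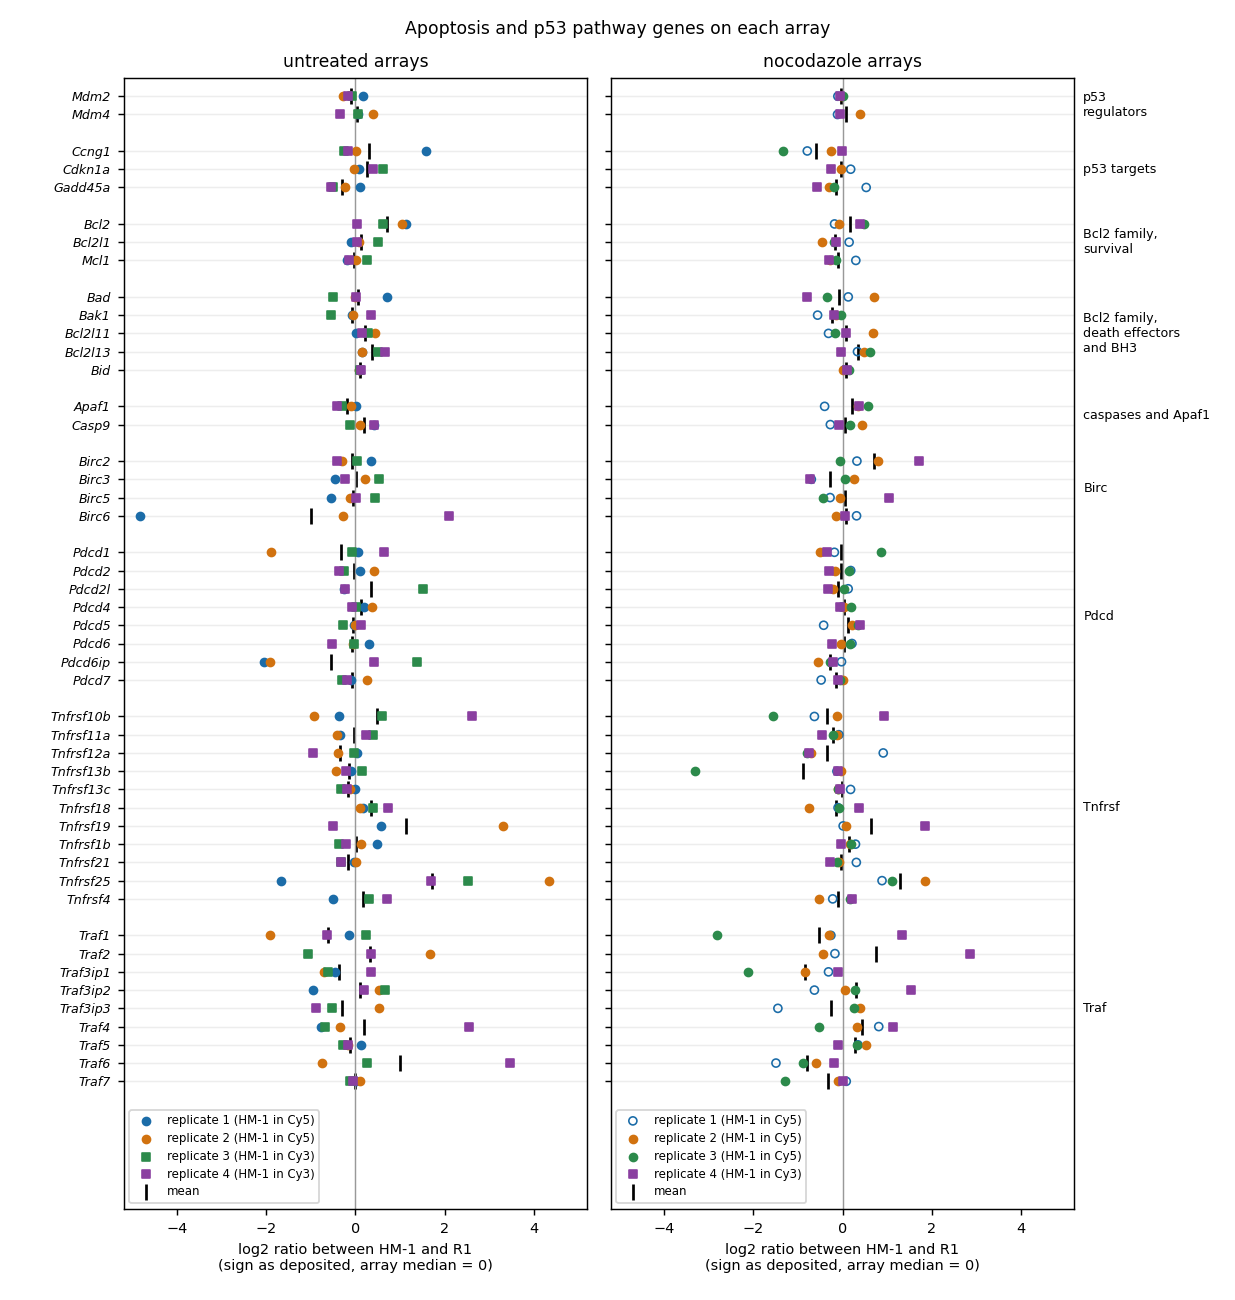
Log2 ratio between the lines (horizontal axis, arrays centred on their median, sign as deposited) of the 47 tested members, listed by role, on the 4 untreated (left) and 4 nocodazole arrays (right). Points are single arrays coloured by replicate, circles for HM-1 in Cy5 and squares for Cy3, open for nocodazole replicate 1, and the short bar is the mean. Most members lie near 0 in both conditions, and the widely scattered ones are receptors, Traf adaptors, Birc6 and Pdcd6ip.

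No measured apoptosis or p53 gene could be told apart between the lines, beyond the spread between arrays, once all features were taken into account. In untreated cells, in nocodazole, in the mean of both and in the change between them, 0 of 47 members and 0 of 14015 features (percent called 0) passed an adjusted p of 0.05 (limma, Benjamini-Hochberg). The smallest adjusted p of a member was 0.758 in untreated cells (limma), 0.999 in nocodazole, 0.897 in the mean and 0.996 in the change. At an unadjusted p below 0.05, 3 members stood out in untreated cells (6.38%, against 6.34% of all features), all with positive ratios: Bcl2, Bcl2l13 and Tnfrsf18. In nocodazole 1 did (2.13% against 2.89% of features), Birc2, and in the change between conditions 0 did (against 3.28%). In the mean of both conditions 3 did (6.38% against 5.53%): Bcl2 and Bcl2l13 with positive ratios and Gadd45a with a negative one. As deposited and with all arrays, none of these counts exceeded the background share by as much as 1 gene.

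Without nocodazole replicate 1, 0 members again passed the adjusted threshold, and at the unadjusted one the counts were 2 in untreated cells (4.26% against 6.44% of features), 6 in nocodazole (12.8% against 4.93%), 6 in the mean (12.8% against 7.09%) and 1 in the change (2.13% against 3.33%). Once the Cy3 arrays were turned, 0 members passed the adjusted threshold and the unadjusted counts were 7 (14.9% against 10.6%), 5 (10.6% against 5.11%), 8 (17% against 10.6%) and 4 (8.51% against 4.82%). The 2 in untreated cells without nocodazole replicate 1 were Bcl2, positive, and Gadd45a, negative, and Bcl2l13 and Tnfrsf18 no longer met the threshold there. The 6 in nocodazole without replicate 1 were Apaf1, Birc2 and Pdcd5 with positive ratios and Gadd45a, Tnfrsf12a and Traf3ip1 with negative ones. The 6 in the mean were Bcl2 and Bcl2l13, positive, and Gadd45a, Tnfrsf12a, Tnfrsf21 and Traf3ip1, negative. The 1 in the change was Apaf1, positive. After the Cy3 arrays were turned, Bcl2 and Gadd45a met the unadjusted threshold in none of the 4 comparisons. Birc5, Bcl2l13, Pdcd2, Pdcd6ip, Tnfrsf10b, Tnfrsf11a, Tnfrsf18, Tnfrsf1b, Tnfrsf4, Traf2 and Traf5 met it in at least 1. The turn changed the sign of the fitted ratio for 28 of 47 members in untreated cells (59.6%, against 57.2% of features), 27 in nocodazole (57.4% against 43.3%), 29 in the mean (61.7% against 56%) and 22 in the change (46.8% against 34.7%).

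**Figure D2:**
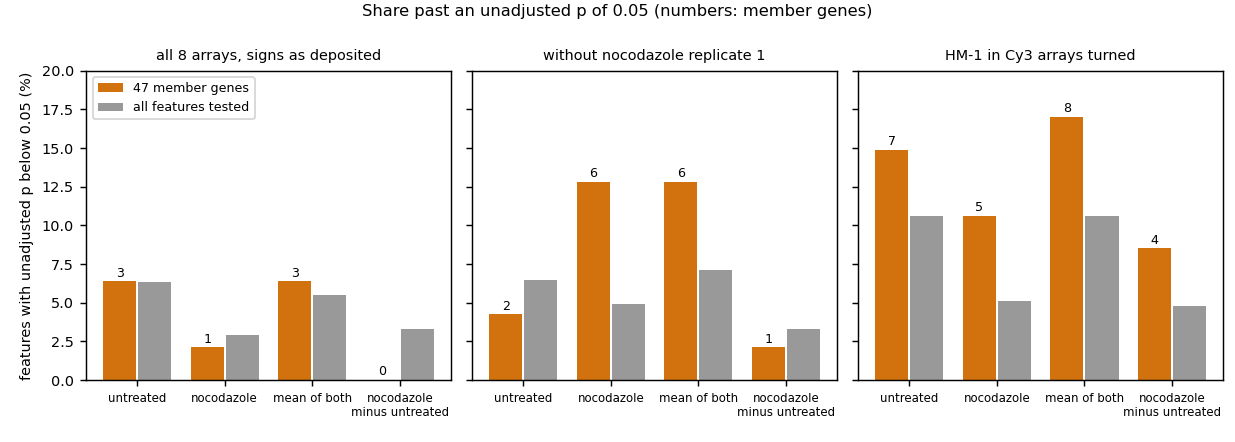
Percentage of the 47 members and of all tested features with an unadjusted p below 0.05 (vertical axis) in each comparison, for all 8 arrays, without nocodazole replicate 1 and with the Cy3 arrays turned. With all arrays the members' bars stand at 6.38, 2.13, 6.38 and 0% beside 6.34, 2.89, 5.53 and 3.28% of features.

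The median ratio of the members was -0.017 in untreated cells and -0.0071 in nocodazole, beside -0.0048 and -0.0056 over all features. Of the 47 ratios, 23 were positive in untreated cells and 22 in nocodazole, and 25 and 23 with the Cy3 arrays turned. The change between conditions had a median of -0.091 against -0.0018 over features, with 19 members positive and 28 negative. Its median was -0.037 without nocodazole replicate 1 and -0.036 with the Cy3 arrays turned. As deposited, among the 40 members with values on all 4 untreated arrays, 6 had one sign throughout (15%, against 13.7% of features), and on nocodazole arrays 8 of 40 did (20%, against 10.1%). In untreated cells these were Bcl2, Bcl2l11, Bcl2l13, Bid and Tnfrsf18, positive, and Tnfrsf13c, negative. In nocodazole they were Bid, positive, and Bak1, Ccng1, Pdcd6ip, Tnfrsf11a, Tnfrsf13b, Traf3ip1 and Traf6, negative. Bid had a positive ratio on all 8 arrays. In the reading with turned Cy3 arrays, 8 of 40 members had one sign in untreated cells (20%, against 20.9% of features) and 7 of 40 in nocodazole (17.5% against 15.8%). Bid was in neither group. In that reading Birc5 and Tnfrsf10b had negative ratios, and Tnfrsf1b positive ones, on all 8 arrays.

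The precision bounds what these arrays could have missed, if the signs hold as deposited. The counts in this paragraph are for all arrays and deposited signs, and were not made with the Cy3 arrays turned. If those arrays still had to be turned, these intervals would not bound the line difference. The 95% interval of the line ratio lay within a 2-fold difference either way for 30 of 47 members in untreated cells (63.8%, against 68.9% of features) and for 30 in nocodazole (63.8% against 66.7%). For the change between conditions 25 members were bounded so (53.2% against 53.4%). The median distance from a member's estimate to either end of its interval was 0.43 in untreated cells, 0.45 in nocodazole and 0.63 for the change. At the ends stood Bid with the narrowest interval in untreated cells, 0.19 to either side, and Birc6 with the widest, 3.11.

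**Figure D3:**
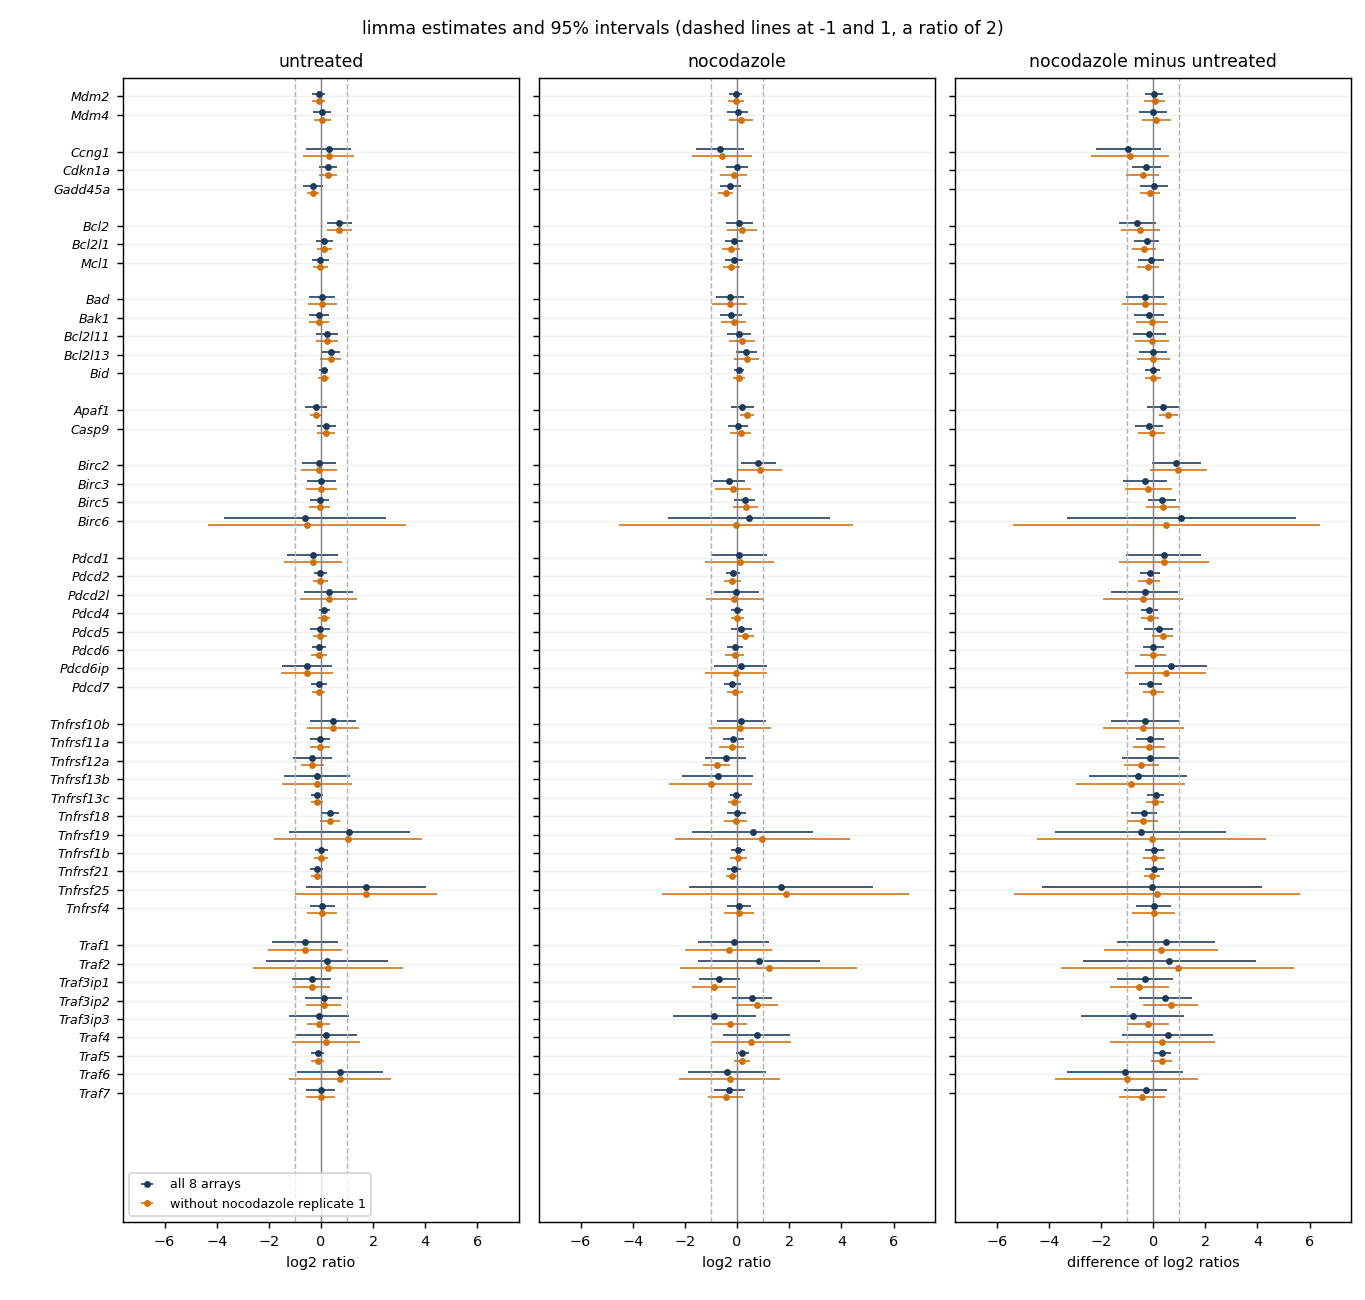
Estimated log2 ratio between the lines with its 95% interval (horizontal axis) for each tested member in untreated cells, in nocodazole and as the change between them, from all 8 arrays (dark) and without nocodazole replicate 1 (orange). Members are ordered by role, and signs are as deposited. With all arrays 30, 30 and 25 of the 47 intervals lie wholly within the marked 2-fold limits.

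Of the p53 regulators, Mdm2, the ubiquitin ligase that degrades p53 and is itself a p53 target, had ratios of 0.16, -0.29, -0.079 and -0.17 on untreated replicates 1 to 4, and -0.10, -0.025, 0.013 and -0.049 on nocodazole replicates 1 to 4. Its untreated and nocodazole values overlapped and all lay close to 0. The group means were -0.092 ± 0.19 (SD, n = 4) and -0.042 ± 0.049 (SD, n = 4). As deposited and with all arrays, the 95% intervals were -0.33 to 0.15 and -0.31 to 0.21. These bound the line difference at 1.26-fold in untreated cells and 1.24-fold in nocodazole. The bounds were 1.28-fold and 1.265-fold without nocodazole replicate 1, and 1.21-fold in each condition with the Cy3 arrays turned. Its 2 probes, each with values on all 8 arrays, had standard deviations of 0.21 and 0.14. Mdm4, the relative of Mdm2 that masks the activation domain of p53, gave 0.063, 0.39, 0.065 and -0.34 on untreated replicates 1 to 4, and -0.11, 0.39 and -0.06 on nocodazole replicates 1, 2 and 4. The conditions overlapped here too, and the estimates were 0.045 (SE 0.14) and 0.022 (SE 0.16).

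Among the p53 targets, Cdkn1a, which encodes the cyclin-dependent kinase inhibitor p21, had ratios of 0.09, -0.026, 0.61 and 0.39 on untreated replicates 1 to 4, and 0.18, -0.023 and -0.25 on nocodazole replicates 1, 2 and 4. The higher values were on the 2 untreated arrays with HM-1 in Cy3, and the nocodazole values lay around those of the other untreated arrays. The estimates were 0.27 (SE 0.14) in untreated cells and -0.005 (SE 0.17) in nocodazole, with a change of -0.27 (95% interval -0.83 to 0.28). With the Cy3 arrays turned they were -0.23, 0.095 and, for the change, 0.33. A line difference of Cdkn1a was thus not detected, and the sign of each estimate depended on whether the Cy3 arrays were turned. Of its 2 promoter windows, the one shown above held 2 half-sites and the other 0.

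Gadd45a, a p53-induced stress gene, gave 0.10, -0.24, -0.51 and -0.55 on untreated replicates 1 to 4, and 0.53, -0.31, -0.19 and -0.57 on nocodazole replicates 1 to 4. It was below 0 on 6 of 8 arrays and above 0 on the first replicate of each condition. In the mean of both conditions the ratio was -0.28 (SE 0.11), with an adjusted p of 0.897 (limma). Without nocodazole replicate 1 it was -0.36 (SE 0.075, adjusted p 0.384, limma), the smallest adjusted p of any member in that reading. The arrays with HM-1 in Cy3 were the 3 lowest, the dye term was 0.51 (adjusted p 0.551, limma), and with those arrays turned the ratio was 0.26.

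Ccng1, cyclin G1, a p53 target that acts back on Mdm2, gave 1.59, 0.0053, -0.25 and -0.18 on untreated replicates 1 to 4, and -0.79, -0.26, -1.33 and -0.012 on nocodazole replicates 1 to 4. Untreated replicate 1 lay far above its group, and the nocodazole values, all below 0, overlapped the other untreated arrays. This spread came from 1 of its 3 probes: that probe had 6 values from -4.22 to 4.52. Of the other two, one gave 0.17, -0.022, -0.11 and -0.20 on untreated replicates 1 to 4, and -0.047, 0.19, 0.023 and 0.077 on nocodazole replicates 1 to 4. The other gave 0.056, -0.11, -0.35 and -0.13 on untreated replicates 1 to 4, and 0.18, -0.024, 0.18 and -0.054 on nocodazole replicates 1 to 4. With standard deviations of 0.13 and 0.18, these stayed close to 0 in both conditions, and the averaged ratio of -0.66 in nocodazole rests on the third probe.

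In the survival branch of the Bcl2 family, Bcl2, which blocks the mitochondrial pore, had ratios of 1.12, 1.04, 0.61 and 0.024 on untreated replicates 1 to 4, and -0.18, -0.069, 0.49 and 0.39 on nocodazole replicates 1 to 4. Untreated replicates 1 to 3 lay above every nocodazole array and replicate 4 lay within their range. The group means were 0.70 ± 0.50 (SD, n = 4) and 0.16 ± 0.33 (SD, n = 4). The untreated ratio of 0.70 (SE 0.20, adjusted p 0.758, limma) had the lowest p of any member in untreated cells, and the change in nocodazole was -0.62 (SE 0.30, adjusted p 0.996, limma). The mean over both conditions was 0.39 (adjusted p 0.897, limma), and with the Cy3 arrays turned the untreated ratio was 0.38 (adjusted p 0.54, limma) and the mean 0.048 (adjusted p 0.902, limma). Without untreated replicate 1 or 2 the untreated ratio was 0.59 or 0.62 and no longer met the unadjusted threshold.

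The 3 Bcl2 probes did not give one pattern. The only probe with values on all 8 arrays gave 0.83, 0.18, -0.11 and 0.036 on untreated replicates 1 to 4, and -0.003, 0.41, 1.16 and 0.52 on nocodazole replicates 1 to 4. Its untreated mean of 0.23 was below its nocodazole mean of 0.52, the opposite order to the averaged gene. The remaining probes had 5 and 6 values and standard deviations of 1.47 and 0.83, and 3 and 2 of those values equalled ratios of small whole numbers (described below).

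Bcl2l1, which encodes Bcl-xL, was read by 5 probes and had averaged ratios of -0.10, 0.089, 0.50 and 0.04 on untreated replicates 1 to 4, and 0.15, -0.47, -0.19 and -0.14 on nocodazole replicates 1 to 4. The conditions overlapped, and the intervals were -0.20 to 0.46 and -0.47 to 0.23. Mcl1, a short-lived survival protein that is lost during long mitotic arrest, gave -0.20, 0.011, 0.25 and -0.15 on untreated replicates 1 to 4, and 0.30, -0.29, -0.14 and -0.30 on nocodazole replicates 1 to 4. Its conditions overlapped as well, with intervals of -0.36 to 0.31 and -0.47 to 0.24. As deposited and with all arrays, these bound the line difference at 1.28-fold and 1.38-fold. The bounds were 1.23-fold and 1.47-fold without nocodazole replicate 1, and 1.31-fold and 1.35-fold with the Cy3 arrays turned.

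On the death side, Bak1, a pore former of the outer mitochondrial membrane, gave -0.082, -0.043, -0.55 and 0.36 on untreated replicates 1 to 4, and -0.56, -0.14, -0.038 and -0.18 on nocodazole replicates 1 to 4. It was below 0 on every array but untreated replicate 4, and its 2 probes had standard deviations of 0.17 and 0.60. Bad, a BH3 protein that binds Bcl2 and Bcl-xL, gave 0.70, -0.006, -0.49 and 0.01 on untreated replicates 1 to 4, and 0.13, 0.70, -0.35 and -0.81 on nocodazole replicates 1 to 4. Its values fell on both sides of 0 in each condition, and of its 3 probes, 2 had 4 whole-number ratios among 6 values. Its complete probe gave -0.11, -0.006, 0.26 and 0.36 on untreated replicates 1 to 4, and -0.14, -0.42, -0.38 and -0.79 on nocodazole replicates 1 to 4. As deposited it was lower on every nocodazole array than on any untreated one, though replicate 1 of each condition lay close together. With the Cy3 arrays turned this order was lost, as nocodazole replicate 4 then lay above every untreated array. This probe was singled out after its values were seen and was not tested by itself.

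Bid, the BH3 protein that links death receptors to mitochondria, gave 0.09, 0.073, 0.10 and 0.12 on untreated replicates 1 to 4, and 0.043, 0.004, 0.14 and 0.09 on nocodazole replicates 1 to 4. All 8 arrays lay between 0 and 0.14, the smallest spread of any member (SD 0.043 over arrays). Its intervals, -0.092 to 0.28 and -0.13 to 0.28, hold 0. In untreated cells they bound the line difference at 1.22-fold as deposited and with all arrays. That bound was 1.23-fold without nocodazole replicate 1 and 1.15-fold with the Cy3 arrays turned. Bcl2l11, the BH3 protein Bim, gave 0.009, 0.44, 0.28 and 0.16 on untreated replicates 1 to 4, and -0.31, 0.68, -0.17 and 0.074 on nocodazole replicates 1 to 4. It was above 0 on all untreated arrays and on both sides of 0 in nocodazole, with an untreated estimate of 0.22 (SE 0.18).

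Bcl2l13, a mitochondrial Bcl2-like protein, gave 0.15, 0.15, 0.50 and 0.67 on untreated replicates 1 to 4, and 0.34, 0.49, 0.63 and -0.037 on nocodazole replicates 1 to 4. It was above 0 on 7 of 8 arrays, and the conditions overlapped. The ratio was 0.37 in untreated cells (SE 0.15, adjusted p 0.784, limma), 0.36 in nocodazole (adjusted p 0.999, limma) and 0.36 in the mean (SE 0.11, adjusted p 0.897, limma). Its complete probe gave 0.76, 0.45, 0.45 and 0.48 on untreated replicates 1 to 4, while the other probe gave -0.48, -0.15, 0.58 and 0.88 on untreated replicates 1 to 4. The probes thus lay on opposite sides of 0 on the first 2 untreated arrays. Once the Cy3 arrays were turned the mean was 0.0018 and the untreated ratio -0.22.

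Apaf1, the scaffold of the apoptosome, gave 0.022, -0.094, -0.30 and -0.41 on untreated replicates 1 to 4, and -0.40, 0.35, 0.56 and 0.36 on nocodazole replicates 1 to 4. Nocodazole replicates 2 to 4 lay above every untreated array, while replicate 1 lay near the lowest untreated one. With all arrays the change was 0.39 (SE 0.25, adjusted p 0.996, limma). Without nocodazole replicate 1 it was 0.58 (SE 0.14, adjusted p 0.988, limma), and the ratio in nocodazole was 0.39 (adjusted p 0.899, limma). After the Cy3 arrays were turned the change was -0.12 and the nocodazole ratio 0.038. Since each array holds both lines, such a value compares the lines under drug and says nothing of the response of either one.

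Casp9, the initiator caspase that Apaf1 activates, gave 0.41, 0.093, -0.12 and 0.42 on untreated replicates 1 to 4, and -0.27, 0.43, 0.17 and -0.072 on nocodazole replicates 1 to 4. The conditions overlapped, with estimates of 0.20 (SE 0.15) and 0.031 (SE 0.16). Of the untested caspases, Casp1, which processes interleukin precursors, had 1 untreated value, 0.28, and nocodazole values from -0.29 to 0.27. Casp2 had 3 untreated values of -1.46, -0.90 and -0.39 and 2 nocodazole values of 0.24 and 0.27, and 4 of its 5 values were whole-number ratios. Casp4 had values on nocodazole arrays only, from -3.81 to 4.17.

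Among the inhibitors of apoptosis, Birc2, the ubiquitin ligase cIAP1, gave 0.34, -0.29, 0.045 and -0.40 on untreated replicates 1 to 4, and 0.32, 0.80, -0.048 and 1.71 on nocodazole replicates 1 to 4. Replicates 2 and 4 in nocodazole were the highest, and the other nocodazole arrays lay within the untreated range. The group means were -0.077 ± 0.34 (SD, n = 4) and 0.70 ± 0.76 (SD, n = 4), and the fitted ratio in nocodazole was 0.81 (SE 0.28, adjusted p 0.999, limma). That ratio came from 1 of its 2 probes, which had 5 values up to 3.36, 4 of them on nocodazole arrays. The probe with all 8 values gave 0.33, -0.29, -0.18 and -0.39 on untreated replicates 1 to 4, and 0.26, 0.12, -0.36 and 0.067 on nocodazole replicates 1 to 4, means of -0.13 and 0.021 whose difference was smaller than its standard deviation of 0.29 over arrays. Without nocodazole replicate 4 the fitted ratio was 0.25, and with the Cy3 arrays turned it was -0.36.

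Birc5, or survivin, a subunit of the chromosomal passenger complex made mostly in mitosis, gave -0.54, -0.12, 0.43 and 0.017 on untreated replicates 1 to 4, and -0.28, -0.057, -0.45 and 1.05 on nocodazole replicates 1 to 4. Nocodazole replicate 4 was the highest, and values of either sign occurred in both conditions. Its 2 probes, both complete, had standard deviations of 1.11 and 0.25: the wider ran from -1.19 to 2.04, and the narrower gave 0.085, -0.21, -0.13 and -0.20 on untreated replicates 1 to 4, and 0.57, 0.031, -0.12 and 0.073 on nocodazole replicates 1 to 4. The dye term was -0.88 (SE 0.24, adjusted p 0.433, limma), and the line ratio was -0.054 (SE 0.16) in untreated cells and 0.29 (SE 0.17) in nocodazole. In the reading with turned Cy3 arrays these were -0.28 and -0.53, and the mean was -0.40 (SE 0.12, adjusted p 0.369, limma). Birc3, the ligase cIAP2, and Birc6, a very large ubiquitin-conjugating inhibitor, had estimates of 0.015 and -0.62 untreated. Birc6 held -4.83, -0.28 and 2.09 on untreated replicates 1, 2 and 4, and 3 of its 6 values were whole-number ratios.

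Of the 12 receptors of the Tnfrsf family, 11 could be tested, with untreated ratios from -0.34 to 1.72 and nocodazole ratios from -0.74 to 1.67. As deposited, 6 were positive and 5 negative in untreated cells, and in nocodazole the reverse. With the Cy3 arrays turned, 5 were positive and 6 negative in each condition. Tnfrsf18, the receptor GITR of T cells, gave 0.17, 0.10, 0.38 and 0.73 on untreated replicates 1 to 4, and -0.10, -0.75, -0.072 and 0.37 on nocodazole replicates 1 to 4. All untreated arrays were above 0, the 2 with HM-1 in Cy3 highest, and 3 of 4 nocodazole arrays were below 0. The untreated ratio was 0.35 (SE 0.14, adjusted p 0.784, limma), and -0.21 with the Cy3 arrays turned.

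Tnfrsf12a, the receptor of the cytokine TWEAK, gave 0.024, -0.39, -0.039 and -0.94 on untreated replicates 1 to 4, and 0.91, -0.71, -0.80 and -0.76 on nocodazole replicates 1 to 4. In nocodazole, replicates 2 to 4 lay close together below every untreated array but replicate 4, and replicate 1 was above 0. With all arrays the nocodazole ratio was -0.44 (SE 0.33), and without nocodazole replicate 1 it was -0.79 (SE 0.21, adjusted p 0.837, limma). Once the Cy3 arrays were turned it was 0.24. Tnfrsf21, the death receptor DR6, had untreated and nocodazole ratios of -0.17 and -0.12, and Tnfrsf1b, the second TNF receptor, had 0.0037 and 0.045. For Tnfrsf1b these were 0.30 (adjusted p 0.379, limma) and 0.15 (adjusted p 0.887, limma) with the Cy3 arrays turned. Tnfrsf10b, the mouse TRAIL receptor and a p53 target, ran from -1.55 to 2.62. It was above 0 on the 3 arrays with HM-1 in Cy3 and below 0 on the other 5, with a dye term of -2.02 (SE 0.56, adjusted p 0.45, limma). With those 3 arrays turned, its ratio was -1.13 in untreated cells (adjusted p 0.385, limma) and -0.96 in nocodazole (adjusted p 0.887, limma). The mean was then -1.04 (adjusted p 0.334, limma). Tnfrsf25, the death receptor DR3, ran from -1.67 to 4.34, with an untreated ratio of 1.72 (95% interval -0.59 to 4.03) that was -0.39 with the Cy3 arrays turned, and Tnfrsf19, which lacks a death domain, from -0.50 to 3.32.

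Tnfrsf4 and Tnfrsf11a, the receptors OX40 and RANK, had untreated ratios of 0.056 and -0.034. After the Cy3 arrays were turned these were -0.50 (adjusted p 0.416, limma) and -0.35 (adjusted p 0.351, limma). Tnfrsf13b and Tnfrsf13c, the receptors TACI and BAFF-R of B cells, had -0.15 and -0.16. The untested Tnfrsf1a, the first TNF receptor, had 5 values from -2.81 to 2.94.

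The 9 Traf genes, adaptors of these receptors together with the TRAF3-interacting genes that share the prefix, had untreated ratios from -0.61 to 0.71 and nocodazole ratios from -0.88 to 0.84. As deposited, 4 were positive and 5 negative in each condition, and 0 reached an unadjusted p of 0.05 in any of the 4 comparisons (limma). In the reading with turned Cy3 arrays, 4 were positive in untreated cells and 1 in nocodazole, and 2, Traf2 and Traf5, reached it in at least 1 comparison. Without nocodazole replicate 1, Traf3ip1 did. Traf7 and Traf5 had the lowest spread, with untreated ratios of -0.017 and -0.13, and nocodazole ratios of -0.30 and 0.20. Traf1, Traf2, Traf4 and Traf6 had standard deviations above 1 over arrays. In Traf4, for example, the complete probe ran from -0.66 to 0.32, and the other two reached 5.04 and 2.86. Traf3ip1, a ciliary protein, was below 0 on 7 of 8 arrays, with a nocodazole ratio of -0.68 (SE 0.33) and, without nocodazole replicate 1, of -0.89 (adjusted p 0.925, limma). Traf3ip2 and Traf3ip3 had untreated ratios of 0.10 and -0.089.

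The 8 Pdcd genes share a name given to transcripts of dying cells and are mostly unrelated. Their untreated ratios ran from -0.54 to 0.30 and their nocodazole ratios from -0.19 to 0.16, with 0 at an unadjusted p of 0.05 in the 4 comparisons as deposited (limma). With the Cy3 arrays turned, 2 reached it, Pdcd2 and Pdcd6ip, and without nocodazole replicate 1, Pdcd5 did. Pdcd4, a translation inhibitor, had 0.12 and -0.021 with intervals of -0.093 to 0.34 and -0.25 to 0.21. Pdcd5 had nocodazole values of -0.42, 0.20, 0.35 and 0.40 on nocodazole replicates 1 to 4, and without replicate 1 its ratio there was 0.32 (adjusted p 0.925, limma). Pdcd2, Pdcd6 and Pdcd7 had untreated ratios of -0.027, -0.076 and -0.086. Pdcd1, the inhibitory receptor PD-1 of T cells, had -0.31 (SE 0.41), and Pdcd2l had 0.30 (SE 0.38).

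Pdcd6ip, the ESCRT adaptor Alix, which works in the final cut of cell division, gave -2.04, -1.91, 1.37 and 0.42 on untreated replicates 1 to 4, and -0.022, -0.55, -0.28 and -0.22 on nocodazole replicates 1 to 4. The untreated values were far below 0 with HM-1 in Cy5 and above 0 with HM-1 in Cy3. As deposited the untreated ratio was -0.54 (SE 0.40), and with the Cy3 arrays turned it was -1.44 (SE 0.18, adjusted p 0.112, limma), the smallest adjusted p of a member in any of the 3 readings. Its 2 probes did not cover the same arrays. One gave 0.12, 1.78 and 0.43 on untreated replicates 2, 3 and 4, and the other -2.05, -3.94 and 0.996 on untreated replicates 1, 2 and 3. Replicate 1 was thus read by one probe alone and replicate 4 by the other, so the gene's untreated values mix probe with dye; each probe had a higher value on replicate 3 (HM-1 in Cy3) than on replicate 2 (Cy5).

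As deposited, the term for the dye of HM-1 had an unadjusted p below 0.05 for 7 members (14.9%, against 9.32% of features): Birc5, Pdcd6ip, Tnfrsf10b, Tnfrsf18 and Traf3ip2 with negative terms, and Pdcd2 and Tnfrsf1b with positive ones. The smallest adjusted p among them was 0.433 (limma). Once the Cy3 arrays were turned, 5 members were at this threshold (10.6%, against 5.18% of features): Bcl2, Bcl2l13, Gadd45a, Pdcd6ip and Traf2. As the numerator is not settled, a dye effect and a line effect on arrays not yet turned cannot be told apart.

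The spread of the members was like that of the array at large at its centre, with a median standard deviation over arrays of 0.45 against 0.42 for all features. A standard deviation below 0.25 was met by 7 of 47 members (14.9% against 28.0% of features): Bid, Mcl1, Mdm2, Pdcd4, Pdcd7, Tnfrsf13c and Tnfrsf21. Above 1 were 10 members (21.3% against 17.9%), which were 4 Traf genes, 4 receptors, Birc6 and Pdcd6ip. Values equal to a ratio of whole numbers up to 10, within 0.0015 on the log2 scale, are what spots with small signals would give, although the signals themselves were not measured here. With probes split by spread into 4 groups of equal size, they made up 6.16% of values in the group of lowest spread and 24.4% in that of highest. For the members' probes the shares were 5.41% (6 of 111 values) and 28.2% (31 of 110 values). Of the 17 members read by more than 1 probe, 7 (Bad, Bcl2, Bcl2l1, Birc2, Birc5, Ccng1 and Traf4) had a probe with a standard deviation below 0.5 and another above 1.

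**Figure D4:**
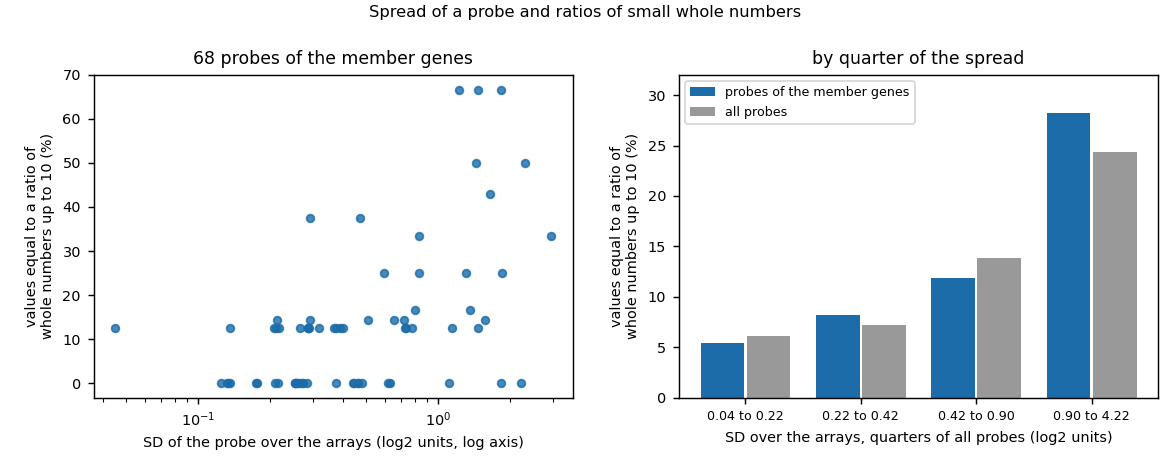
Share of values equal to a ratio of small whole numbers against the standard deviation of the probe over arrays (log2), for the 68 member probes with at least 6 values, beside the share over all probes in each of 4 groups of equal size by spread. Over all probes the share is 6.16% in the group of lowest spread and 24.4% in that of highest.

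Few differences appeared among other genes of the pathway. Of 94 further genes of apoptosis and p53 signalling, from sestrins and DNA damage kinases to caspase substrates, 55 could be tested, and 0 passed the adjusted threshold in any comparison (limma). At an unadjusted p below 0.05 there were 0 in untreated cells, 1 in nocodazole (1.82% against 2.89% of features), 0 in the mean and 1 in the change (1.82% against 3.28%). Without nocodazole replicate 1 the counts were 0, 4 (7.27% against 4.93%), 3 (5.45% against 7.09%) and 3 (5.45% against 3.33%), and with the Cy3 arrays turned 7 (12.7% against 10.6%), 1 (1.82% against 5.11%), 4 (7.27% against 10.6%) and 4 (7.27% against 4.82%). With all arrays both were Diablo, named after its values were seen, which encodes the mitochondrial protein Smac that relieves caspases from inhibition by Birc proteins. Its ratios were -1.28, -1.69, 0 and -0.01 on untreated replicates 1 to 4, and -0.99, 2.13, 0.24 and 2.50 on nocodazole replicates 1 to 4. The highest values were nocodazole replicates 2 and 4, and replicate 1 lay among the untreated arrays. The change was 2.14 (SE 0.66, adjusted p 0.996, limma), and the nocodazole ratio 1.40. Without nocodazole replicate 1 the change was 2.60 (unadjusted p 0.0020, limma) and the nocodazole ratio 1.86 (unadjusted p 0.0027, limma). In that reading no feature passed the adjusted threshold. With all arrays and the Cy3 arrays turned, the change was 0.35 and the nocodazole ratio -0.38.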

How the data were processed

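The deposited table holds 1 log2 ratio of the channels per probe and array for 20355 probes. The sources used here do not give the authors' background correction, normalization or choice of numerator. Each array carries 1 repeated code, the log2 of a ratio of 100000 plus an offset, which stands for a denominator of 0. The sign of this code changed with the labelled dye of HM-1. By itself this does not settle the numerator or whether the Cy3 arrays had been turned. Of the probes, 14030 had 1 gene symbol in the platform annotation, 5 had several and 6320 none, and 13994 were matched by gene ID to RefSeq names (GRCm38.p6, used for names only).

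Absolute log2 values above 10 were set to missing, probes of 1 symbol were averaged per array, arrays were centred on their median and features with at least 3 values in each group were kept (14015, of which 8726 had a gene name). Values of single probes were centred on the median over probes. limma 3.58.1 (R 4.3.3) was fitted to all 8 arrays and all features with a coefficient for each condition and a term for the dye of HM-1. P-values were adjusted over all features by Benjamini-Hochberg with a threshold of 0.05, intervals are 95%, and the fit was tested on simulated data. The comparisons were the line ratio in untreated cells, in nocodazole, their mean and their difference. The number of arrays limits the precision. Same-numbered arrays of the 2 conditions had correlations of 0.14, 0.038, -0.051 and 0.13 in their deviations from the condition means. For replicates 1, 2 and 4 the same-numbered array correlated best, but it also shared the dye of HM-1, so the correlations cannot settle pairing. The labels do not say either, and the main fit did not take the numbers as pairs.

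Alternatives were the turned Cy3 arrays, centring, scaling, filters, probe averaging, dye term, array weights, a replicate block, each array left out and, added after the data were seen, whole-number ratios set to missing. The members and all gene lists were chosen with earlier results of these data known. Values on every array are given for the core members named in the design and for every member with an unadjusted p below 0.05 in 1 of the comparisons; other genes of the pathway were to be named at an unadjusted p below 0.01.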

Additional observations from a re-analysis of the deposited data

Results flagged for a closer look

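Of 83 groups of 4 arrays tested for a single array far from the rest, 5 had one, where chance gives about 1 in 20. Ccng1 stood at 1.59 on untreated replicate 1, with the other untreated arrays at -0.25 to 0.0053. Tnfrsf12a stood at 0.91 on nocodazole replicate 1, with the others at -0.80 to -0.71. Nocodazole replicate 3, the array with the widest spread over features, held Tnfrsf13b at -3.30, with the others at -0.13 to -0.03, and Traf7 at -1.30, with the others at -0.11 to 0.084. Traf4 stood at 2.54 on untreated replicate 4, with the others at -0.77 to -0.34.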

How the results depend on the processing

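Under all 21 alternatives the number of members past the adjusted threshold stayed at 0 in each comparison (limma). The number of features past it also stayed at 0, except that 1 feature passed in nocodazole when only features with values on all 8 arrays were kept. The number of members at an unadjusted p below 0.05 ranged from 1 to 7 in untreated cells, 0 to 6 in nocodazole, 1 to 8 in the mean and 0 to 4 in the change. With the Cy3 arrays turned, the sign changed for 22 to 29 of the 47 members in each comparison. Among ratios at an unadjusted p below 0.05 as deposited, it changed for Bcl2l13 (-0.22) and Tnfrsf18 (-0.21) in untreated cells, Birc2 in nocodazole (-0.36) and Gadd45a in the mean (0.26). Features at an unadjusted p below 0.05 then numbered 1484 against 888 in untreated cells, 716 against 405 in nocodazole and 1486 against 775 in the mean, and in nocodazole 696 without replicate 1 and 764 without replicate 4. With a replicate block, 0 members passed in each comparison and the unadjusted counts were 2, 1, 3 and 0. The block had a consensus correlation of 0.093. Same-numbered arrays of replicates 1, 2 and 4 also shared the dye of HM-1. Untreated replicates 1, 2 and 4 correlated best with the nocodazole array of their own number, and untreated replicate 3 with nocodazole replicate 4. The labels do not say whether same-numbered arrays are pairs.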
